A study of Mus musculus with 20 samples.

Results

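The 33 genes described here carry glucose into the heart cell, break it down to pyruvate and lactate, store it as glycogen, or handle related sugars. They were taken by symbol from a table of 25851 genes, and all 33 were found. They comprise glucose transporters, hexokinases, the enzymes of glycolysis, lactate dehydrogenases, enzymes of glycogen synthesis and breakdown, and a pair of genes for other sugars. The libraries were made from poly-A RNA of heart pieces of 20 males, 14 to 16 weeks old, at 5 mice in each of 4 groups. KO_Ex mice were labelled cardiomyocyte knockouts of PGC-1α given 6 weeks of voluntary wheel running. WT_Ex mice were wild type with the same training. KO_Sed mice were labelled knockouts kept sedentary, and WT_Sed mice were wild type kept sedentary. PGC-1α, the product of Ppargc1a, is a coactivator that switches on genes of mitochondria and fuel oxidation. The Cre line that would drive the deletion, the deleted exons and the sampled region of the heart are not given in the sources used here. The mean level of Ppargc1a itself was higher with the labelled knockout, at 22.6 ± 3.01 FPKM in KO_Ex against 15.8 ± 4.86 FPKM in WT_Ex, and at 22.9 ± 4.41 FPKM in KO_Sed against 12.3 ± 2.85 FPKM in WT_Sed (SD, n = 5 each). A level over all exons does not check a deletion of some of them, and the genotype is therefore called the labelled knockout.

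Glucose enters muscle cells through the transporters GLUT1 (Slc2a1) and GLUT4 (Slc2a4), of which GLUT4 is moved to the cell surface by insulin and by contraction. Hexokinase traps it as glucose 6-phosphate, which is either stored as glycogen or sent down glycolysis, where phosphofructokinase is the main point of control and lactate dehydrogenase joins pyruvate to lactate. Many steps have a muscle or heart form and a form used in other tissues or in the fetal heart, and the adult heart draws most of its energy from fatty acids with glucose and lactate as further fuels. PGC-1α acts partly through estrogen-related receptors, which bind DNA sites holding AAGGTCA.

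Expression is given as deposited FPKM, reads scaled to exon length and to a size for each library, so that levels of different genes can be set side by side. That size, recovered from the values, was not the read total. It was 24.467 M for 22.308 M reads in KO_Ex replicate 4, and 20.024 M for 22.805 M reads in WT_Ex replicate 1. The basis of that size was not tested. Fold changes are log2 values of FPKM + 0.5 with their SE, from limma across 13723 genes with a mean of at least 0.5 FPKM. A gene is said to have risen or fallen where its adjusted p over all those genes was below 0.05. Each limma p sets a difference against the spread between mice, 1 library each, pooled over the 4 groups. That spread is also moderated by the spread of other genes.

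Library depth was 14.162 to 30.431 M reads per library. Arntl, a clock gene, was above 2 FPKM in WT_Sed replicates 1 to 4 and in KO_Sed replicate 1. It was at most 1.16 FPKM in every trained heart, so that WT_Sed differed in this respect from both KO_Sed and WT_Ex. Myl7, the atrial myosin light chain, was above 1000 FPKM in KO_Ex replicates 2 and 5 and WT_Ex replicates 4 and 5. The same 4 libraries, in that order, held the adipocyte markers Ucp1, at 117, 4.42, 57.8 and 30.1 FPKM, and Adipoq, at 36.7, 3.94, 27.2 and 9.65. In every other library Ucp1 was at most 0.0367 FPKM and Adipoq at most 0.362. Results without the 4 libraries with high Myl7 therefore leave out atrial and adipocyte markers together, and their parts cannot be told apart. Cardiomyocyte markers were abundant in every library, with 10 markers summing to 17259.5 to 19334 FPKM in KO_Ex, 20403 to 23241 in WT_Ex, 21378 to 25224 in KO_Sed and 20953 to 26158 in WT_Sed. Of these, 6 fell and 2 rose in KO_Ex against WT_Ex, and 7 fell and 1 rose in KO_Ex against KO_Sed. All 8 macrophage markers rose in both comparisons, with sums of 356 to 647 FPKM in KO_Ex, 168 to 305 in WT_Ex, 265 to 301 in KO_Sed and 161 to 237 in WT_Sed. Of 8 fibroblast markers, 7 rose in KO_Ex against WT_Ex and 6 in KO_Ex against KO_Sed, with sums of 337 to 672 FPKM in KO_Ex, 146 to 234 in WT_Ex, 184 to 220.1 in KO_Sed and 152 to 184 in WT_Sed. In KO_Sed against WT_Sed, 4 macrophage markers rose, as did 4 of 5 tested skeletal muscle markers led by Acta1, while Myh1 and Myh2, which define fast skeletal fibres, stayed at or below 0.0397 FPKM in every library. Of 8 endothelial markers, 4 fell in KO_Ex against WT_Ex and 2 in KO_Sed against WT_Sed, with sums of 222 to 275 FPKM in KO_Ex, 279 to 395 in WT_Ex, 208 to 288 in KO_Sed and 273 to 333 in WT_Sed. The sums of 7 smooth muscle and pericyte markers were 589.8 to 671 FPKM in KO_Ex, 248 to 345 in WT_Ex, 466 to 525 in KO_Sed and 211 to 292 in WT_Sed, without overlap between the genotypes, and of 6 tested 1 rose and 1 fell in each genotype comparison. The sums of 7 atrial markers were 1479 to 5526 FPKM in KO_Ex, 16.9 to 9153 in WT_Ex, 267 to 903 in KO_Sed and 36.8 to 241 in WT_Sed. Of these 7, 1 rose and 0 fell in KO_Ex against WT_Ex, and 0 were called in KO_Sed against WT_Sed. Nppa is in both the atrial and the cardiomyocyte list. Apart from Myh1 in WT_Sed, no marker of these lists was at 0 in a whole group. The part these marker shifts have in the results below was not tested, and fewer cells of a type and less RNA per cell cannot be told apart in tissue RNA.

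Of 32 tested genes, 4 rose and 10 fell in KO_Ex against WT_Ex, where 27.9% of all tested genes were called. The genes that fell were Slc2a4, Pfkm, Pfkfb1, Aldoa, Tpi1, Pgam2, Eno3, Ldhb, Gys1 and Pygm, of which Tpi1 turned to 0.02 when every library was rescaled to the same FPKM sum (TPM). The 4 genes that rose on the FPKM scale were Ldha, Gyg, Galk2 and Renbp. After rescaling to TPM 12 of 32 rose and 6 fell, where 37.1% of all tested genes rose and 5.76% fell. Among the 12 were Slc2a1, Hk1, Pfkp, Pgk1, Pgam1, Eno1, Ugp2 and Pygb, none of them called on the FPKM scale. On the FPKM scale 12.5% of all tested genes rose and 15.4% fell. The median log2 fold change was -0.08 over the 32 genes and -0.005 over all genes tested. In all 14 the KO_Ex and WT_Ex libraries did not overlap, against 8.07% of all tested genes that were higher and 11.1% that were lower without overlap.

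Sedentary labelled knockouts differed at 10 genes. Gpi1, Eno1, Ldha, Gyg, Galk2 and Renbp rose, and Pfkm, Pfkfb1, Ldhb and Gys1 fell in KO_Sed against WT_Sed, where 13.3% of all tested genes were called. By direction, 6.96% of all tested genes rose and 6.32% fell. The groups did not overlap for 4 of the 32 genes that were higher and 5 that were lower, against 5.14% and 5.29% of all tested genes. The median was 0.05 over the 32 genes and -0.009 over all genes. Because Arntl was high in 4 WT_Sed libraries and 1 KO_Sed library, the comparison was repeated with log2 Arntl as a covariate, and Gpi1 (0.20), Eno1 (0.31), Ldha (0.35) and Gys1 (-0.44) then no longer passed. Without those 5 libraries, which leaves a lone WT_Sed heart assumed to vary like the others, Renbp alone of the 10 passed. The values of the other 9 were then 0.19 for Gpi1, 0.33 for Eno1, 0.20 for Ldha, 0.37 for Gyg, 0.76 for Galk2, -0.48 for Pfkm, -1.36 for Pfkfb1, -0.45 for Ldhb and -0.19 for Gys1.

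Few of the genes differed between trained and sedentary wild-type hearts, and many between trained and sedentary labelled knockouts. In WT_Ex against WT_Sed 1 of 32 fell, Ugp2, and 0 rose by limma, where 5.47% of all tested genes were called, 2.94% upward and 2.53% downward. In 0 of the 32 did the groups not overlap, against 2.24% of all tested genes that were higher and 1.68% that were lower. At an unadjusted p below 0.05, 4 were higher and 5 lower, where 12.5% of all tested genes were higher and 14.4% lower. The call of Ugp2 was lost without any 1 of 8 libraries, WT_Ex replicates 2, 4 and 5, WT_Sed replicates 1, 2, 3, 4 and 5, at -0.62 to -0.42, and under 9 of 14 other settings. Arntl averaged 2.56 FPKM in WT_Sed and 0.465 in WT_Ex, against 0.612 in KO_Sed and 0.377 in KO_Ex. With log2 Arntl as a covariate Ugp2 was at -0.42 and not called in WT_Ex against WT_Sed, where 0.532% of all tested genes were called. In KO_Ex against KO_Sed 3 rose (Pfkp, Pfkfb3 and Pgam1) and 11 fell (Slc2a4, Pfkm, Pfkfb2, Aldoa, Tpi1, Pgk1, Pgam2, Eno3, Pkm, Ldhb and Pygm), where 28.4% of all tested genes were called, 12.1% upward and 16.3% downward. Without overlap, 1 was higher and 9 were lower, against 8.96% and 13.7% of all tested genes. On the TPM scale Pgk1 turned to 0.05 in that comparison, and 4 rose and 6 fell, where 29.2% of all tested genes rose and 4.58% fell. The median was -0.05 in WT_Ex against WT_Sed and -0.22 in KO_Ex against KO_Sed, while over all genes it was -0.014 and -0.024. Each group of hearts enters 2 of these 4 comparisons, so their calls are not independent of each other.

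**Figure D1:**
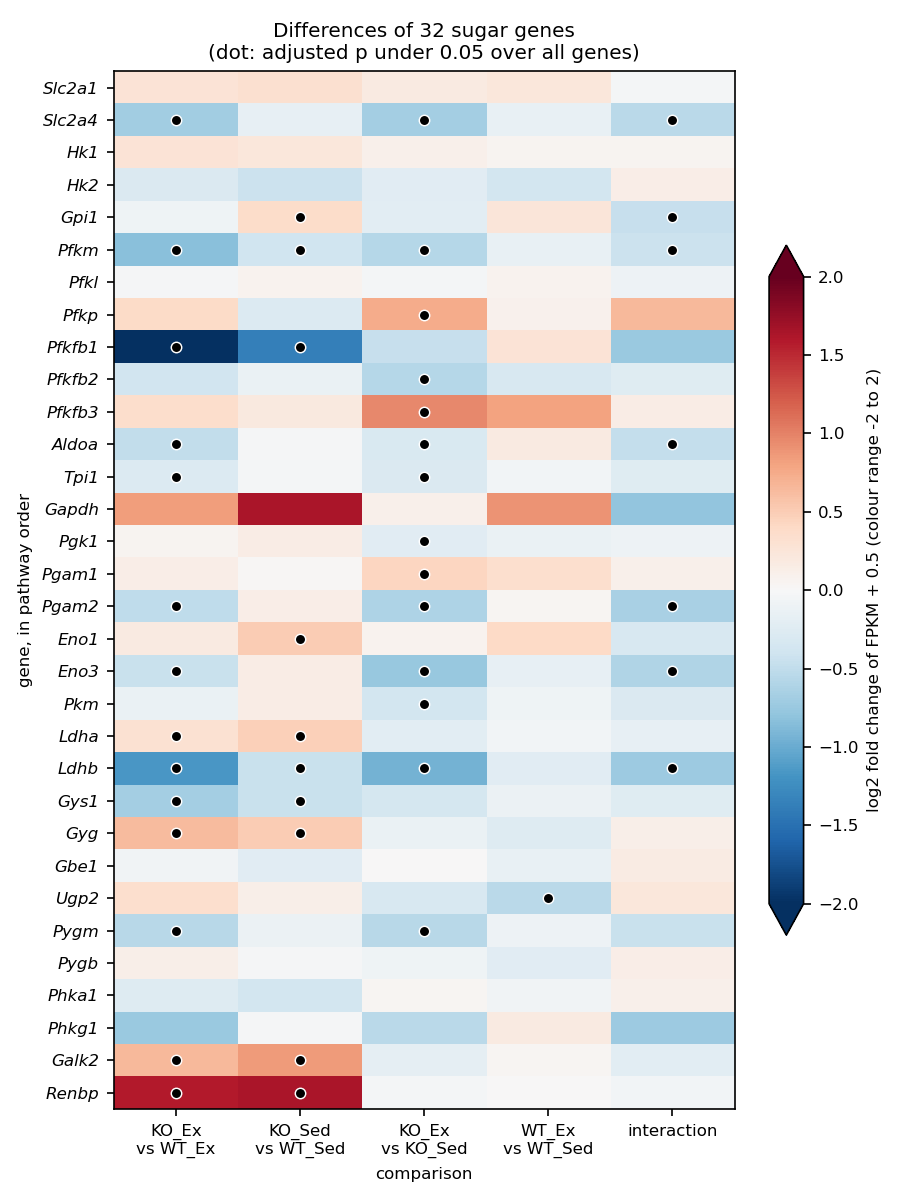
Log2 fold changes of 32 genes, in pathway order from top to bottom, in 5 comparisons from left to right. Dots mark an adjusted p below 0.05, which 14, 10, 14, 1 and 7 genes passed in the columns from left to right, and colours are limited to 2 on either side of 0, which Pfkfb1 exceeds at -2.11 in KO_Ex against WT_Ex.

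The promoters were searched for the motif of estrogen-related receptors (AAGGTCA), the E-box (CACGTG) and the core of the hypoxia response element (GCGTG), each on both strands. RefSeq gave 51 promoters for 32 of the 33 genes on GRCm38.p6, each running 250 bases before to 50 bases after a start site. Slc2a4 had no entry. AAGGTCA was in 3 of the 51, belonging to Pfkfb1, Tpi1 and Eno1, against 4.72% of 32817 mouse promoters. CACGTG was in 5, of Pfkm, Pfkfb2, Pfkfb3, Ldha and Gyg, against 7.15% of all, and GCGTG was in 26 (51%), against 32.4% of all. None of the 3 motifs holds another on either strand. The 3 promoters with the estrogen-related receptor motif are shown because PGC-1α works with those receptors, and that of Ldha because it was the one gene here with a pair of E-boxes. Capitals mark AAGGTCA or its reverse complement in the first 3 and CACGTG in the last, and a match of letters is not evidence of binding.
Pfkfb1 promoter, chrX:150589666-150589965, plus strand: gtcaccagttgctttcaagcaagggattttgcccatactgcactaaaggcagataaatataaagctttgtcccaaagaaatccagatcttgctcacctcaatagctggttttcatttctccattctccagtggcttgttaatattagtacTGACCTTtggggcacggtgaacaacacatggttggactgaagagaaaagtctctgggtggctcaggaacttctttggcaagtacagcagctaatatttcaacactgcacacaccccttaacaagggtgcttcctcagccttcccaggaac
Tpi1 promoter, chr6:124814109-124814408, minus strand: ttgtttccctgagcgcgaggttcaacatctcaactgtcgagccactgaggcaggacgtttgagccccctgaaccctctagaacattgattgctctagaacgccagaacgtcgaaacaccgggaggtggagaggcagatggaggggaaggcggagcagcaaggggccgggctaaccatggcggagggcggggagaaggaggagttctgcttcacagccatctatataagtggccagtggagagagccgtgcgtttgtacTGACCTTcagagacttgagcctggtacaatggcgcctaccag
Eno1 promoter, chr4:150236458-150236757, plus strand: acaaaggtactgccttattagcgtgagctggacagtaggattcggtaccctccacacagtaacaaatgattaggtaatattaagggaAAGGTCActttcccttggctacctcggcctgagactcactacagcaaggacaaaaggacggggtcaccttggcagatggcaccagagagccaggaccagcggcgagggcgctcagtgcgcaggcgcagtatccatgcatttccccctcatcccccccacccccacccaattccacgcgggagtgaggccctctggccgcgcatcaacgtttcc
Ldha promoter, chr7:46845554-46845853, plus strand: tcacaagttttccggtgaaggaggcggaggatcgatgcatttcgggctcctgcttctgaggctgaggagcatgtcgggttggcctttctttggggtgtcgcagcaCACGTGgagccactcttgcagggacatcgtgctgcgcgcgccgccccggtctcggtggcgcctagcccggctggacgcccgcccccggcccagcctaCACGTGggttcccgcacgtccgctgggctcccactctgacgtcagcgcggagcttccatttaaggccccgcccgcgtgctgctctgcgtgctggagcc
The genes with the receptor motif did not move alike: Pfkfb1 fell in both genotype comparisons, Tpi1 fell in KO_Ex only before rescaling to TPM, and Eno1 rose in KO_Sed against WT_Sed.

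The GLUT4 transcript was at its lowest in trained labelled knockout hearts. Slc2a4 (ENSMUSG00000018566, chr11:69942539-69948188, minus strand), which encodes GLUT4, was at 85.6, 85.1, 82.7, 83.0 and 95.6 FPKM in KO_Ex hearts, against 162, 117, 148, 127 and 153 FPKM in WT_Ex hearts. In sedentary mice it was at 115, 151, 148, 132 and 151 FPKM in KO_Sed hearts, against 147, 147, 135, 175 and 178 FPKM in WT_Sed hearts. The highest KO_Ex heart lay below the lowest heart of every other group, while the sedentary genotypes overlapped. Slc2a4 fell in KO_Ex against WT_Ex (-0.70 ± 0.10, limma adjusted p = 3.05e-05) and against KO_Sed (-0.68 ± 0.10, limma adjusted p = 7.03e-05). Its differences in KO_Sed against WT_Sed (-0.17, 95% interval -0.38 to 0.05) and in WT_Ex against WT_Sed (-0.15, -0.36 to 0.06) did not pass. Slc2a1, which encodes the basal transporter GLUT1, had 7.89, 7.15, 9.01, 10.9 and 8.02 FPKM in KO_Ex hearts, against 6.65, 5.13, 6.43, 7.76 and 9.67 FPKM in WT_Ex hearts. Sedentary hearts had Slc2a1 at 7.20, 8.34, 5.31, 7.88 and 8.93 FPKM in KO_Sed hearts, against 5.07, 4.77, 5.71, 7.47 and 6.72 FPKM in WT_Sed hearts. All 4 groups overlapped, and Slc2a1 passed in none of the comparisons of the main fit, with log2 fold changes of 0.27 in KO_Ex against WT_Ex and 0.31 in KO_Sed against WT_Sed. Without the 4 libraries with high Myl7 the trained difference was 0.57 and passed (limma adjusted p = 0.0341).

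Neither hexokinase gene passed the main test in any comparison. Hk1 encodes the form bound to mitochondria in many tissues. Its level was 28.2, 20.6, 29.7, 31.5 and 23.9 FPKM in KO_Ex hearts, against 25.4, 19.8, 22.7, 19.5 and 22.4 FPKM in WT_Ex hearts. In sedentary hearts Hk1 stood at 21.7, 25.4, 21.5, 26.6 and 28.2 FPKM in KO_Sed hearts, against 23.6, 22.4, 18.4, 21.9 and 18.9 FPKM in WT_Sed hearts. Hk2 encodes the insulin-responsive form of muscle. It was at 49.1, 42.6, 52.7, 46.2 and 38.4 FPKM in KO_Ex hearts, against 93.0, 43.1, 65.9, 44.2 and 46.6 FPKM in WT_Ex hearts, and the groups overlapped. Sedentary hearts had Hk2 at 60.0, 58.9, 44.7, 47.1 and 57.9 FPKM in KO_Sed hearts, against 77.3, 65.9, 70.9, 75.8 and 70.0 FPKM in WT_Sed hearts, without overlap between the genotypes. The log2 fold change of Hk2 in KO_Sed against WT_Sed was -0.43 ± 0.16 (limma adjusted p = 0.0911). It passed there when those groups were fitted alone (limma adjusted p = 0.0148), with array weights and with log2 Myl7 as a covariate. In WT_Ex against WT_Sed Hk2 passed without WT_Ex replicate 1 (-0.54). For Hk1 in KO_Ex against WT_Ex it was 0.27 ± 0.11 (limma adjusted p = 0.0841), while it reached 0.40 and passed once the 4 libraries with high Myl7 were left out (limma adjusted p = 0.0277). Gpi1, which turns glucose 6-phosphate into fructose 6-phosphate, averaged 82.7 ± 4.85 FPKM in KO_Ex, 88.2 ± 5.19 in WT_Ex, 96.2 ± 8.86 in KO_Sed and 75.1 ± 12.3 in WT_Sed. It rose in KO_Sed against WT_Sed (0.37 ± 0.09, limma adjusted p = 0.0134), a call that was also lost when those groups were fitted alone.

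The muscle form of phosphofructokinase fell with the labelled knockout in both sedentary and trained hearts. Pfkm (ENSMUSG00000033065, chr15:98092589-98132451, plus strand) encodes the subunit of adult heart and skeletal muscle. It was at 185, 178, 179.8, 167 and 204 FPKM in KO_Ex hearts, against 372, 292, 357, 298 and 316 FPKM in WT_Ex hearts. Sedentary hearts had Pfkm at 243, 278, 279.7, 268 and 291 FPKM in KO_Sed hearts, against 337, 333, 340.2, 401 and 389 FPKM in WT_Sed hearts. All KO_Ex hearts lay below all KO_Sed hearts and all KO_Sed hearts below all WT_Sed and WT_Ex hearts. Pfkm fell in KO_Ex against WT_Ex (-0.83 ± 0.08, limma adjusted p = 3.82e-07), in KO_Sed against WT_Sed (-0.40 ± 0.08, limma adjusted p = 0.00304) and in KO_Ex against KO_Sed (-0.57 ± 0.08, limma adjusted p = 5.09e-05). Its wild-type training difference was -0.14 (95% interval -0.31 to 0.03) and did not pass.

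The other subunits were at lower FPKM than Pfkm in every heart. Pfkl, the liver subunit, stood at 23.4, 24.2, 25.5, 27.2 and 20.4 FPKM in KO_Ex hearts, against 26.7, 24.9, 25.2, 23.3 and 22.8 FPKM in WT_Ex hearts. In sedentary hearts Pfkl was at 21.4, 26.1, 24.8, 24.2 and 26.6 FPKM in KO_Sed hearts, against 23.7, 22.4, 18.8, 28.0 and 24.3 FPKM in WT_Sed hearts. Its group means ranged from 23.5 to 24.6 FPKM, every pair of groups overlapped and none of its differences passed, the sedentary genotype difference being 0.08 (95% interval -0.12 to 0.27). Pfkp, the platelet subunit, had 6.09, 4.28, 7.16, 7.38 and 3.06 FPKM in KO_Ex hearts, against 4.20, 4.14, 4.49, 4.20 and 3.04 FPKM in WT_Ex hearts. Sedentary hearts had Pfkp at 3.20, 2.90, 2.45, 3.28 and 3.22 FPKM in KO_Sed hearts, against 4.14, 4.57, 3.60, 3.71 and 2.80 FPKM in WT_Sed hearts. KO_Ex replicates 2 and 5, which were high in Myl7, were the 2 lowest KO_Ex hearts for Pfkp. Pfkp rose in KO_Ex against KO_Sed (0.74 ± 0.18, limma adjusted p = 0.00393), with a single KO_Ex heart inside the KO_Sed range. It did not pass in KO_Ex against WT_Ex (0.38 ± 0.18, limma adjusted p = 0.121), where the value was 0.62 without the 4 libraries with high Myl7 (limma adjusted p = 0.0032).

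Genes of the bifunctional enzymes that make and break fructose 2,6-bisphosphate, the activator of phosphofructokinase, moved in opposite ways. Pfkfb1 (ENSMUSG00000025271, chrX:150588229-150643878, plus strand) encodes the form first described in liver and skeletal muscle, and 1 of its promoters is printed above. It was at 0.720, 1.82, 0.450, 0.478 and 1.26 FPKM in KO_Ex hearts, against 4.26, 10.5, 4.84, 3.99 and 5.10 FPKM in WT_Ex hearts. Sedentary hearts had Pfkfb1 at 1.09, 1.57, 2.08, 1.32 and 1.02 FPKM in KO_Sed hearts, against 3.12, 3.39, 6.28, 5.12 and 4.52 FPKM in WT_Sed hearts. Every labelled knockout heart lay below every wild-type heart, with 41 to 594 reads per library over all groups. Pfkfb1 fell in KO_Ex against WT_Ex (-2.11 ± 0.27, limma adjusted p = 6.68e-06) and in KO_Sed against WT_Sed (-1.37 ± 0.27, limma adjusted p = 0.00215). WT_Ex replicate 2 was high at 10.5 FPKM. The training differences, -0.47 in labelled knockouts and 0.28 in wild type, did not pass in the main fit. Without the 4 libraries with high Myl7 the difference in labelled knockouts was -0.85 and passed (limma adjusted p = 0.0237). It also passed with array weights (-0.64, limma adjusted p = 0.0207).

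Pfkfb2, the heart form of the same enzyme, stood at 6.62, 5.85, 5.68, 4.65 and 5.48 FPKM in KO_Ex hearts, against 9.13, 7.50, 8.61, 7.16 and 5.47 FPKM in WT_Ex hearts. In sedentary mice Pfkfb2 was at 11.0, 7.65, 8.54, 8.35 and 7.87 FPKM in KO_Sed hearts, against 11.8, 9.58, 11.9, 7.16 and 7.91 FPKM in WT_Sed hearts. All KO_Ex hearts were below all KO_Sed hearts, and Pfkfb2 fell in that comparison (-0.57 ± 0.15, limma adjusted p = 0.00624). Its trained genotype difference was -0.38 ± 0.15, limma adjusted p = 0.0612. With the 4 libraries high in Myl7 left out it was -0.54 and passed (limma adjusted p = 0.0398). Pfkfb3, the inducible form with high kinase activity, had 2.87, 6.93, 2.49, 3.15 and 2.72 FPKM in KO_Ex hearts, against 1.86, 3.02, 1.81, 3.56 and 2.91 FPKM in WT_Ex hearts. Sedentary hearts had Pfkfb3 at 0.919, 2.32, 1.61, 1.19 and 1.73 FPKM in KO_Sed hearts, against 1.15, 1.41, 0.934, 0.969 and 1.96 FPKM in WT_Sed hearts. Every KO_Ex heart was above every KO_Sed heart, and 121 to 1125 reads per library lay behind the values. Pfkfb3 rose in KO_Ex against KO_Sed (0.96 ± 0.24, limma adjusted p = 0.00553). In WT_Ex against WT_Sed its log2 fold change was 0.80 ± 0.24, limma adjusted p = 0.0559. It passed there with a pseudocount of 0.1 (0.98, limma adjusted p = 0.0485), with array weights (0.85) and without any 1 of WT_Ex replicates 1 and 3 and WT_Sed replicate 5.

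In lower glycolysis Aldoa, Tpi1, Pgam2 and Eno3 fell in KO_Ex against WT_Ex, and none of these 4 genes passed the test in KO_Sed against WT_Sed. Aldoa encodes aldolase of muscle. It was at 694, 613, 702, 719 and 620.1 FPKM in KO_Ex hearts, against 931, 977, 1023, 907 and 863 FPKM in WT_Ex hearts, and the groups did not overlap. In sedentary mice Aldoa stood at 689.8, 894, 887, 823 and 841 FPKM in KO_Sed hearts, against 783, 827, 669, 956 and 966 FPKM in WT_Sed hearts, and the genotypes overlapped. Aldoa fell in KO_Ex against WT_Ex (-0.49 ± 0.10, limma adjusted p = 0.000801) and in KO_Ex against KO_Sed (-0.30 ± 0.10, limma adjusted p = 0.0264). The training call was lost without the 4 libraries with high Myl7 (-0.22) and without any 1 of 5 libraries, KO_Ex replicates 2 and 5, KO_Sed replicates 2, 3 and 5 (-0.29 to -0.27). Aldoc, the brain aldolase, was at 0.142 to 0.385 FPKM in KO_Ex, 0.0184 to 0.325 in WT_Ex, 0.0116 to 0.105 in KO_Sed and 0 to 0.0574 in WT_Sed, below the filter and therefore not tested. With no filter it was at 0.30 in KO_Ex against WT_Ex (limma adjusted p = 0.0493) and 0.40 in KO_Ex against KO_Sed (limma adjusted p = 0.0113).

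Tpi1 encodes triosephosphate isomerase, and its promoter is printed above. It was at 199, 161, 192, 212 and 174 FPKM in KO_Ex hearts, against 240.1, 218, 244, 212 and 214 FPKM in WT_Ex hearts. Sedentary hearts had Tpi1 at 220.1, 232, 224, 225 and 240.2 FPKM in KO_Sed hearts, against 237, 224, 224, 249 and 238 FPKM in WT_Sed hearts. All KO_Ex hearts lay below all WT_Ex and KO_Sed hearts, narrowly so for the highest KO_Ex and lowest WT_Ex heart. Tpi1 fell in KO_Ex against WT_Ex (-0.27 ± 0.07, limma adjusted p = 0.00625) and in KO_Ex against KO_Sed (-0.29 ± 0.07, limma adjusted p = 0.00422), although on the TPM scale its values were 0.02 and -0.02. The related sequence Tpi-rs11 was at 17.3 to 27.6 FPKM in KO_Ex and 20.6 to 34.1 in WT_Ex, so that some reads could belong to either. Without the 4 libraries with high Myl7 the training difference of Tpi1 was -0.19 and still passed. Gapdh, which oxidises glyceraldehyde 3-phosphate, ranged from 2.75 to 66.7 FPKM within KO_Ex alone and passed in no comparison over all libraries. It has many near-identical copies in the genome, and its level here is uncertain. Pgk1, which makes the first ATP of the pathway, averaged 169 ± 18.5 FPKM in KO_Ex, 163 ± 10.6 in WT_Ex, 197 ± 11.5 in KO_Sed and 178 ± 10.8 in WT_Sed. It fell in KO_Ex against KO_Sed (-0.22 ± 0.07, limma adjusted p = 0.0313), turned to 0.05 on the TPM scale, and was not called without the 4 libraries with high Myl7 (-0.11). Nor was it called when those groups were fitted alone, with log2 Myl7 as a covariate (-0.18), or without any 1 of KO_Ex replicates 2 and 5, KO_Sed replicates 2, 4 and 5 (-0.22 to -0.18).

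Phosphoglycerate mutase and enolase each have a muscle gene and a widely expressed gene. Pgam2, the muscle mutase, was at 419.6, 484, 442, 425 and 445 FPKM in KO_Ex hearts, against 579, 703, 678, 610.1 and 578 FPKM in WT_Ex hearts. In sedentary hearts Pgam2 stood at 603, 668, 809, 674 and 641 FPKM in KO_Sed hearts, against 648, 631, 484, 649.6 and 677 FPKM in WT_Sed hearts. All KO_Ex hearts were below all WT_Ex and KO_Sed hearts. Pgam2 fell in KO_Ex against WT_Ex (-0.50 ± 0.10, limma adjusted p = 0.000484) and in KO_Ex against KO_Sed (-0.61 ± 0.10, limma adjusted p = 0.00011). Pgam1, the mutase of most other tissues, had 35.5, 39.8, 39.4, 44.5 and 30.1 FPKM in KO_Ex hearts, against 33.8, 31.5, 26.8, 40.4 and 41.5 FPKM in WT_Ex hearts. Sedentary hearts had Pgam1 at 25.4, 27.5, 26.5, 27.1 and 31.9 FPKM in KO_Sed hearts, against 27.9, 27.7, 27.7, 30.5 and 22.3 FPKM in WT_Sed hearts. Pgam1 rose in KO_Ex against KO_Sed (0.44 ± 0.12, limma adjusted p = 0.00928), with an overlap of KO_Ex and KO_Sed hearts. In KO_Ex against WT_Ex it was at 0.13 ± 0.12, limma adjusted p = 0.477, and at 0.37 without the 4 libraries with high Myl7 (limma adjusted p = 0.0363). Its FPKM did not convert to whole reads.

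Eno3 (ENSMUSG00000060600, chr11:70657202-70662513, plus strand) encodes the muscle enolase. It was at 573, 586, 595, 584 and 636 FPKM in KO_Ex hearts, against 853, 904, 955, 704 and 675 FPKM in WT_Ex hearts. Sedentary hearts had Eno3 at 913, 998, 1149, 961 and 1022 FPKM in KO_Sed hearts, against 865, 800.2, 824, 1059.5 and 1015 FPKM in WT_Sed hearts. KO_Ex hearts lay below every other heart, and Eno3 fell in KO_Ex against WT_Ex (-0.45 ± 0.10, limma adjusted p = 0.00248) and in KO_Ex against KO_Sed (-0.76 ± 0.10, limma adjusted p = 3.11e-05). Eno1, the enolase of most tissues, stood at 45.4, 59.2, 50.4, 52.3 and 43.4 FPKM in KO_Ex hearts, against 37.9, 39.7, 42.5, 52.2 and 48.5 FPKM in WT_Ex hearts. In sedentary hearts Eno1 was at 39.8, 46.8, 47.5, 51.4 and 51.6 FPKM in KO_Sed hearts, against 29.2, 31.2, 28.1, 40.1 and 39.0 FPKM in WT_Sed hearts. A single WT_Sed heart reached into the KO_Sed range, and Eno1 rose in KO_Sed against WT_Sed (0.50 ± 0.12, limma adjusted p = 0.0076). Its wild-type training difference was 0.40 ± 0.12, limma adjusted p = 0.052. Pkm, pyruvate kinase of muscle, was at 248, 232, 243, 251.9 and 234 FPKM in KO_Ex hearts, against 289.9, 276, 295, 241 and 234 FPKM in WT_Ex hearts. Sedentary hearts had Pkm at 281, 312, 324, 312 and 335 FPKM in KO_Sed hearts, against 256, 267, 249.6, 344 and 308 FPKM in WT_Sed hearts. Pkm fell in KO_Ex against KO_Sed (-0.37 ± 0.09, limma adjusted p = 0.00377), without overlap, and was not called on the TPM scale (-0.10).

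Lactate dehydrogenase showed the smallest adjusted p of the 33 genes, with its heart form falling and its muscle form rising. Ldhb (ENSMUSG00000030246, chr6:142490249-142507957, minus strand) encodes the H subunit, the main form of the adult heart, whose tetramers favour the use of lactate. It was at 415, 429.7, 411, 362 and 465 FPKM in KO_Ex hearts, against 989, 994, 1056, 852 and 788 FPKM in WT_Ex hearts. Sedentary hearts had Ldhb at 777, 789, 914, 779 and 766 FPKM in KO_Sed hearts, against 1103, 1092, 1033, 1121 and 1107 FPKM in WT_Sed hearts. All KO_Ex hearts lay below all KO_Sed hearts and all KO_Sed hearts below all WT_Sed hearts, while WT_Ex spanned part of both sedentary ranges. Ldhb fell in KO_Ex against WT_Ex (-1.16 ± 0.08, limma adjusted p = 1.72e-08), in KO_Sed against WT_Sed (-0.44 ± 0.08, limma adjusted p = 0.0018) and in KO_Ex against KO_Sed (-0.95 ± 0.08, limma adjusted p = 3.15e-06). In wild type the training difference was -0.23 ± 0.08, limma adjusted p = 0.0987. Both calls of KO_Ex hearts, against WT_Ex and against KO_Sed, passed in every setting tried and without any 1 library.

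Ldha (ENSMUSG00000063229, chr7:46841475-46855627, plus strand) encodes the M subunit, the form of skeletal muscle and of low oxygen, whose promoter with a pair of E-boxes is printed above. It was at 288, 257, 291, 305 and 265 FPKM in KO_Ex hearts, against 222, 245, 236, 218 and 210.5 FPKM in WT_Ex hearts. Sedentary hearts had Ldha at 302, 317, 346, 335 and 319.6 FPKM in KO_Sed hearts, against 206, 207, 201, 283 and 287 FPKM in WT_Sed hearts. Labelled knockout hearts lay above wild-type hearts in both conditions without overlap. WT_Sed replicates 4 and 5 were well above WT_Sed replicates 1 to 3. Ldha rose in KO_Ex against WT_Ex (0.31 ± 0.10, limma adjusted p = 0.0199) and in KO_Sed against WT_Sed (0.47 ± 0.10, limma adjusted p = 0.00331). The trained call was lost without KO_Ex replicate 4 (0.28) and without the 4 libraries with high Myl7 (0.33). Neither training difference passed, at -0.20 in labelled knockouts (limma adjusted p = 0.124) and -0.05 in wild type (95% interval -0.25 to 0.15).

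Glycogen genes moved in both directions. Gys1, the glycogen synthase of muscle, was at 14.9, 16.5, 16.5, 16.6 and 17.3 FPKM in KO_Ex hearts, against 35.3, 21.6, 28.9, 21.6 and 27.1 FPKM in WT_Ex hearts. Sedentary hearts had Gys1 at 16.7, 23.5, 19.3, 19.4 and 27.9 FPKM in KO_Sed hearts, against 29.6, 28.3, 27.1, 33.8 and 25.4 FPKM in WT_Sed hearts. KO_Ex hearts were below all WT_Ex hearts, and 1 KO_Sed heart fell within the WT_Sed range. Gys1 fell in KO_Ex against WT_Ex (-0.68 ± 0.13, limma adjusted p = 0.00069) and in KO_Sed against WT_Sed (-0.44 ± 0.13, limma adjusted p = 0.0342). The sedentary call was lost on the TPM scale (-0.35), with no filter on low values, and without any 1 of KO_Sed replicates 1, 3 and 4, WT_Sed replicates 1, 2, 3 and 4 (-0.46 to -0.36). Gyg encodes glycogenin, the protein on which a glycogen particle is started. It was at 111, 83.3, 93.5, 106 and 90.7 FPKM in KO_Ex hearts, against 70.4, 48.6, 69.9, 60.8 and 63.4 FPKM in WT_Ex hearts. In sedentary hearts Gyg stood at 102, 109, 92.9, 115 and 114 FPKM in KO_Sed hearts, against 73.4, 68.3, 65.2, 84.0 and 82.8 FPKM in WT_Sed hearts. Labelled knockouts lay above wild type without overlap in both conditions. Gyg rose in KO_Ex against WT_Ex (0.63 ± 0.11, limma adjusted p = 0.000147) and in KO_Sed against WT_Sed (0.51 ± 0.11, limma adjusted p = 0.00352).

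Pygm, the glycogen phosphorylase of muscle, was at 289, 259.7, 279, 248 and 291 FPKM in KO_Ex hearts, against 489.5, 363, 452, 351 and 372 FPKM in WT_Ex hearts. Sedentary hearts had Pygm at 356, 424, 383, 391 and 447 FPKM in KO_Sed hearts, against 413, 397, 369, 538 and 464 FPKM in WT_Sed hearts. KO_Ex hearts lay below all others. Pygm fell in KO_Ex against WT_Ex (-0.56 ± 0.11, limma adjusted p = 0.000549) and in KO_Ex against KO_Sed (-0.55 ± 0.11, limma adjusted p = 0.000777). Pygb, the brain form, had 212, 199, 239, 269.6 and 209 FPKM in KO_Ex hearts, against 257, 172, 228, 184 and 199.7 FPKM in WT_Ex hearts. In sedentary hearts Pygb was at 211, 260.2, 210.4, 239 and 273 FPKM in KO_Sed hearts, against 219, 215, 225, 299.7 and 251 FPKM in WT_Sed hearts. Its groups overlapped throughout and none of its differences passed in the main fit, the trained genotype difference being 0.12 (95% interval -0.13 to 0.37). After rescaling to TPM that difference was 0.41 and passed (limma adjusted p = 0.0118), where 37.1% of all tested genes rose. Ugp2, which makes UDP-glucose for glycogen, averaged 95.0 ± 13.8 FPKM in KO_Ex, 76.4 ± 20.7 in WT_Ex, 118 ± 12.1 in KO_Sed and 109 ± 19.6 in WT_Sed, with -0.54 ± 0.16 in WT_Ex against WT_Sed (limma adjusted p = 0.0492). Gbe1, the branching enzyme, and Phka1 and Phkg1, subunits of phosphorylase kinase, passed in no comparison. Gbe1 ranged over 7.18 to 9.30 FPKM in KO_Ex, 5.60 to 10.2 in WT_Ex, 6.93 to 8.55 in KO_Sed and 8.72 to 10.2 in WT_Sed. Phka1 in KO_Sed against WT_Sed stood at -0.37 ± 0.12, limma adjusted p = 0.05, at the threshold, and passed under 5 of the other settings. Phkg1 spread from 2.98 to 9.31 FPKM in KO_Ex and from 5.37 to 15.5 in WT_Ex, a difference of -0.75 ± 0.29, limma adjusted p = 0.0661. Once the 4 libraries high in Myl7 were left out it was -0.90 and passed (limma adjusted p = 0.00336).

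The 2 genes of other sugars rose in labelled knockouts with and without training, and neither training difference passed. Renbp (ENSMUSG00000031387, chrX:73922121-73930850, minus strand) encodes an epimerase of N-acetylglucosamine, also known as renin binding protein. It was at 7.06, 6.56, 6.96, 6.19 and 7.84 FPKM in KO_Ex hearts, against 1.42, 2.27, 1.44, 2.44 and 2.53 FPKM in WT_Ex hearts. Sedentary hearts had Renbp at 5.68, 8.24, 6.76, 7.50 and 7.62 FPKM in KO_Sed hearts, against 1.74, 2.30, 1.45, 2.00 and 2.44 FPKM in WT_Sed hearts. The lowest labelled knockout heart was more than 2-fold above the highest wild-type heart, with 60 to 560 reads per library. Renbp rose in KO_Ex against WT_Ex (1.58 ± 0.14, limma adjusted p = 1.4e-07) and in KO_Sed against WT_Sed (1.63 ± 0.14, limma adjusted p = 1.25e-06), and it passed in every setting and without any 1 library. Its training differences were -0.04 in labelled knockouts (95% interval -0.33 to 0.26) and 0.01 in wild type (-0.29 to 0.30).

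Galk2 encodes a kinase that in humans prefers N-acetylgalactosamine. It was at 3.05, 2.79, 3.07, 3.33 and 2.84 FPKM in KO_Ex hearts, against 1.61, 1.45, 1.61, 1.99 and 2.18 FPKM in WT_Ex hearts. In sedentary hearts Galk2 stood at 3.16, 3.97, 3.51, 3.28 and 3.52 FPKM in KO_Sed hearts, against 1.62, 1.55, 1.60, 1.81 and 1.91 FPKM in WT_Sed hearts. Every labelled knockout heart was above every wild-type heart, on 125 to 590 reads per library. Galk2 rose in KO_Ex against WT_Ex (0.64 ± 0.09, limma adjusted p = 1.56e-05) and in KO_Sed against WT_Sed (0.86 ± 0.09, limma adjusted p = 7.08e-06). Its training difference in labelled knockouts was -0.18 (95% interval -0.36 to 0.00).

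**Figure D2:**
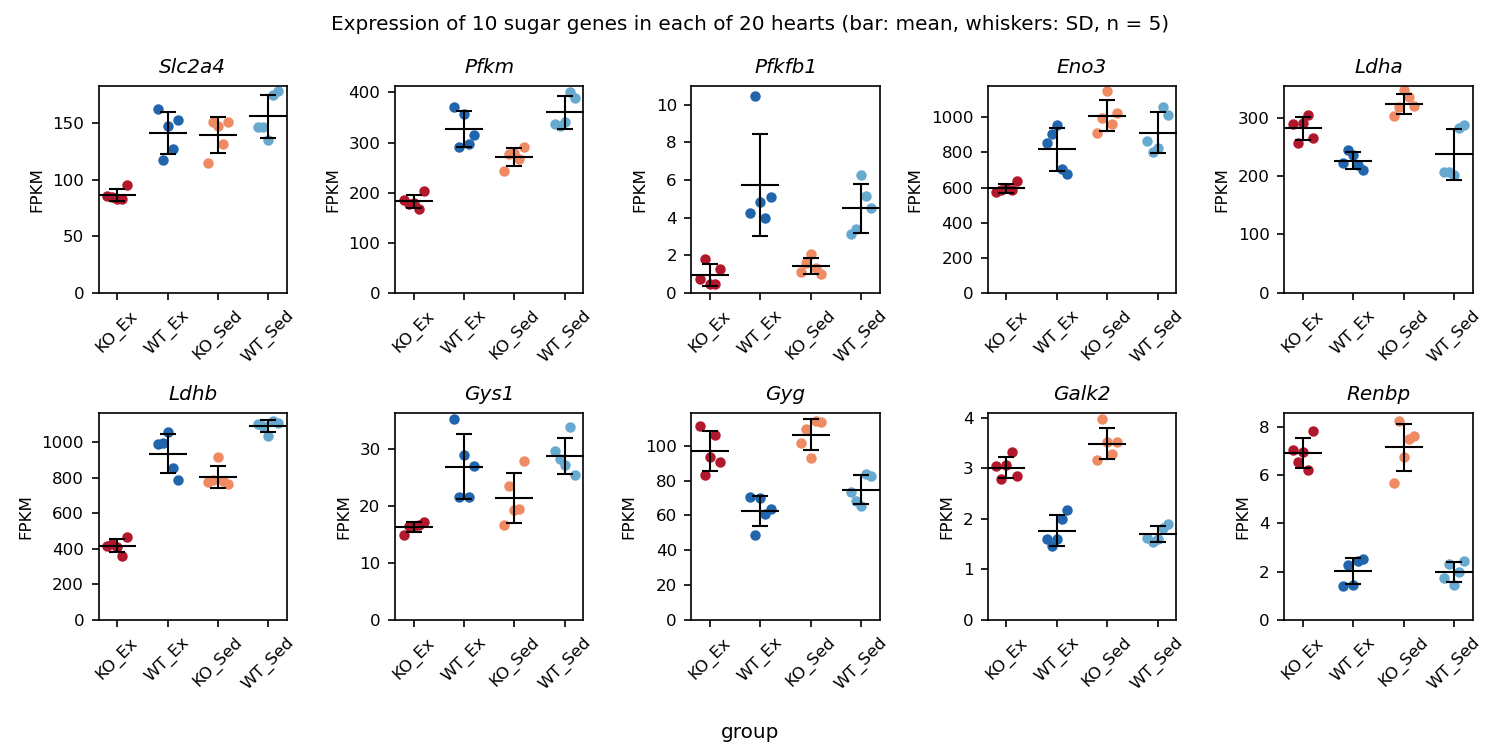
FPKM of 10 genes in each of 20 hearts, by group on the horizontal axis, on linear axes from 0. Points are hearts, bars group means and whiskers SD (n = 5). Ldhb is at 362 to 465 FPKM in KO_Ex and at 788 to 1056 FPKM in WT_Ex, and Renbp at 6.19 to 7.84 FPKM in KO_Ex and at 1.42 to 2.53 FPKM in WT_Ex.

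Where 1 step has a pair of genes, their share within a heart does not depend on how libraries are scaled. The log2 ratio of each of 10 pairs was compared in 4 comparisons by an exact two-sided permutation test over hearts, whose smallest possible p is 0.00794, with adjustment over the 40 tests. In all, 28 of 40 passed. Other gene pairs were not tested, so no share stands beside that count. Of all single genes, 27.9% were called in KO_Ex against WT_Ex and 28.4% in KO_Ex against KO_Sed. The 40 tests are not independent, since Pfkm and Pfkfb2 each enter more than 1 pair and groups recur between comparisons. Ldha made up 41.0, 37.4, 41.5, 45.7 and 36.4% of the summed FPKM of Ldha and Ldhb in KO_Ex hearts, against 18.4, 19.7, 18.3, 20.4 and 21.1% in WT_Ex hearts. In sedentary mice the Ldha share was 28.0, 28.7, 27.5, 30.0 and 29.4% in KO_Sed hearts, against 15.7, 15.9, 16.3, 20.1 and 20.6% in WT_Sed hearts. All KO_Ex hearts were above all KO_Sed hearts, and all KO_Sed hearts above all wild-type hearts. The log2 ratio of Ldha to Ldhb differed by 1.48 (exact permutation p = 0.00794, adjusted 0.0144) in KO_Ex against WT_Ex, by 0.91 (exact permutation p = 0.00794, adjusted 0.0144) in KO_Sed against WT_Sed and by 0.75 (exact permutation p = 0.00794, adjusted 0.0144) in KO_Ex against KO_Sed. In WT_Ex against WT_Sed it differed by 0.18 (exact permutation p = 0.151, adjusted 0.177).

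For phosphofructokinase the liver form gained on the muscle form in all 4 comparisons. Pfkl was 11.7 ± 1.80% of Pfkl and Pfkm in KO_Ex, 7.03 ± 0.529% in WT_Ex, 8.30 ± 0.192% in KO_Sed and 6.11 ± 0.551% in WT_Sed. The log2 ratio differed by 0.80 (exact permutation p = 0.00794, adjusted 0.0144) in KO_Ex against WT_Ex and by 0.22 (exact permutation p = 0.00794, adjusted 0.0144) in WT_Ex against WT_Sed. Pfkp against Pfkm differed in both comparisons of KO_Ex hearts, by 1.21 (exact permutation p = 0.00794, adjusted 0.0144) against WT_Ex and by 1.31 (exact permutation p = 0.00794, adjusted 0.0144) against KO_Sed. In KO_Sed against WT_Sed the Pfkp to Pfkm ratio differed by 0.13 (exact permutation p = 0.452, adjusted 0.476), which did not pass.

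The ratio of GLUT1 to GLUT4 transcripts was higher in all 4 comparisons. Slc2a1 made up 9.07 ± 1.65% of the pair in KO_Ex, 4.80 ± 0.961% in WT_Ex, 5.16 ± 0.974% in KO_Sed and 3.65 ± 0.418% in WT_Sed. Its log2 ratio differed by 0.97 (exact permutation p = 0.00794, adjusted 0.0144) in KO_Ex against WT_Ex and by 0.87 (exact permutation p = 0.00794, adjusted 0.0144) in KO_Ex against KO_Sed. Hk1 was 36.8 ± 2.97% of the hexokinase pair in KO_Ex against 28.3 ± 4.66% in WT_Ex, and 31.6 ± 3.55% in KO_Sed against 22.6 ± 1.82% in WT_Sed. The Hk1 to Hk2 ratio passed in both genotype comparisons, at 0.56 (exact permutation p = 0.00794, adjusted 0.0144) and 0.65 (exact permutation p = 0.00794, adjusted 0.0144), although neither gene alone passed the main limma test. Pgam1 and Eno1 gained on their muscle forms in KO_Ex against KO_Sed, by 1.05 (exact permutation p = 0.00794, adjusted 0.0144) and 0.83 (exact permutation p = 0.00794, adjusted 0.0144). For Eno1 the wild-type training difference, 0.56 (exact permutation p = 0.00794, adjusted 0.0144), passed as well, but it was 0.27 without the 4 libraries with high Myl7. Pygb was 45.1 ± 4.23% of the phosphorylase pair in KO_Ex against 33.9 ± 1.12% in WT_Ex, and the ratio was higher in KO_Ex by 0.68 (exact permutation p = 0.00794, adjusted 0.0144). In WT_Ex against WT_Sed that ratio moved the other way, by -0.12 (exact permutation p = 0.0159, adjusted 0.0265).

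Of the bifunctional enzymes, Pfkfb1 lost against Pfkfb2 with the labelled knockout. It was 13.8 ± 7.07% of the pair in KO_Ex against 42.0 ± 11.0% in WT_Ex, and 14.1 ± 4.21% in KO_Sed against 31.9 ± 8.32% in WT_Sed. The log2 ratio differed by -1.73 (exact permutation p = 0.00794, adjusted 0.0144) in trained and -1.24 (exact permutation p = 0.00794, adjusted 0.0144) in sedentary mice. Pfkfb3 gained on Pfkfb2 with training in both genotypes, by 1.53 (exact permutation p = 0.00794, adjusted 0.0144) in labelled knockouts and 1.13 (exact permutation p = 0.0238, adjusted 0.0366) in wild type. Without the 4 libraries with high Myl7, 39 of the 40 differences kept their direction, but 0 of 40 passed. Among those that had passed in WT_Ex against WT_Sed, some shrank. The difference went from 0.56 to 0.27 for Eno1, from 1.13 to 0.78 for Pfkfb3 and from 0.38 to 0.18 for Slc2a1. It stayed at 0.22 for Pfkl and went from -0.12 to -0.15 for Pygb. Groups of 3 against 3 cannot go below a p of 0.1 or 3 against 5 below 0.0357, and the sedentary genotype tests, on the same hearts as before, then missed the adjustment over 40.

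**Figure D3:**
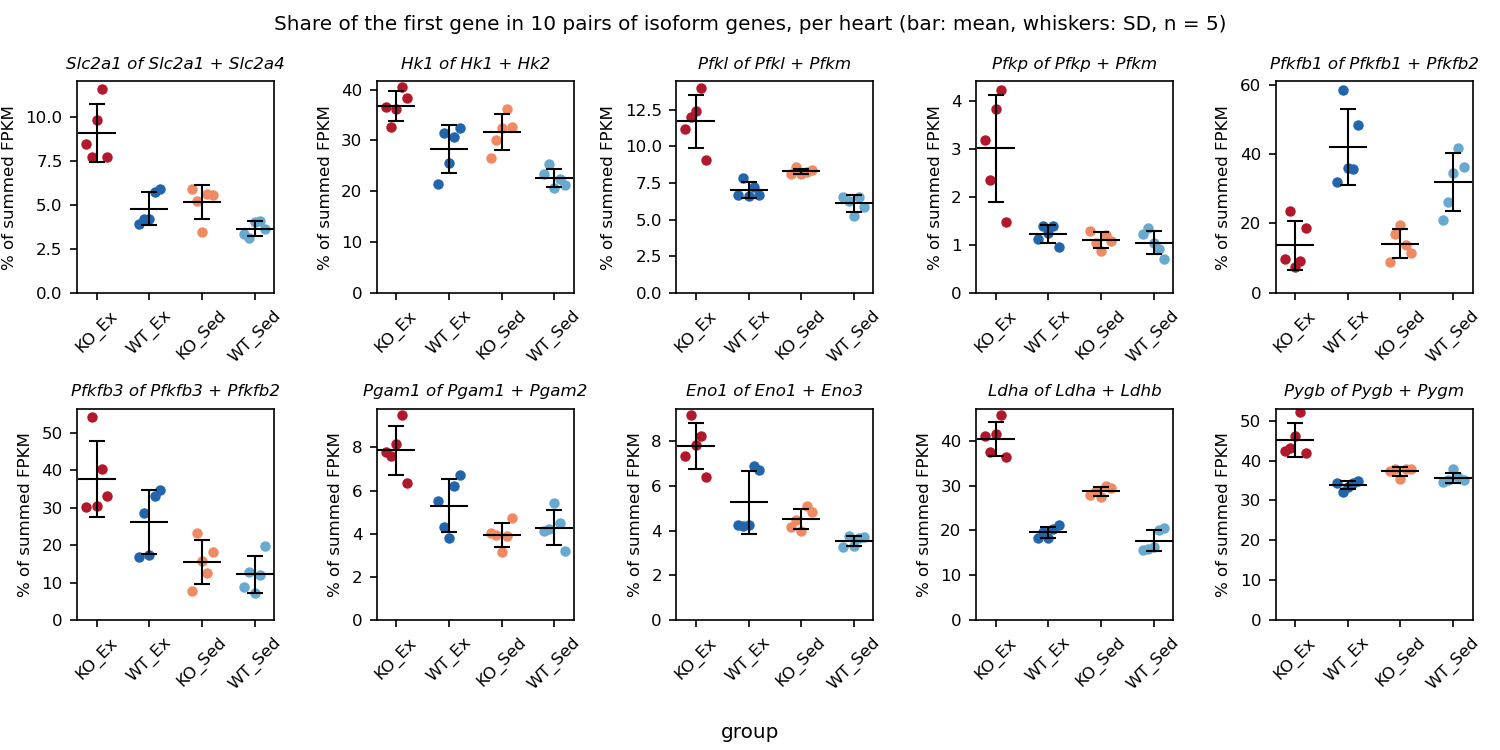
Share of the first gene in the summed FPKM of each of 10 pairs, in percent on axes from 0, for each of 20 hearts by group. Points are hearts, bars group means and whiskers SD (n = 5). Ldha is at 40.4 ± 3.70% in KO_Ex and 19.6 ± 1.23% in WT_Ex, and Pfkfb1 at 13.8 ± 7.07% in KO_Ex and 42.0 ± 11.0% in WT_Ex.

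Whether training acted differently in the labelled knockout was tested as an interaction, the training difference in labelled knockouts minus that in wild type. It was negative and passed for 7 of 32 genes, and positive for 0, where 7.32% of all tested genes were called, 2.32% upward and 5% downward. At an unadjusted p below 0.05, 10 were lower and 1 was higher by limma, where 15.1% of all tested genes were lower and 10.9% higher. The 7 were Ldhb (-0.72 ± 0.12, limma adjusted p = 0.00568), Pgam2 (-0.64 ± 0.14, limma adjusted p = 0.0107), Eno3 (-0.60 ± 0.14, limma adjusted p = 0.0204), Slc2a4 (-0.53 ± 0.14, limma adjusted p = 0.0315), Pfkm (-0.43 ± 0.12, limma adjusted p = 0.0319), Aldoa (-0.47 ± 0.14, limma adjusted p = 0.0441) and Gpi1 (-0.46 ± 0.13, limma adjusted p = 0.0415). For Ldhb, training gave -0.95 in labelled knockouts and -0.23 in wild type. For Aldoa and Gpi1 the signs were opposite, with -0.30 and -0.22 in labelled knockouts and 0.17 and 0.24 in wild type.

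Ldhb, Pgam2 and Eno3 passed without any 1 of the 20 libraries. The count fell to 3 without some single libraries, because the other 4 lost their call. Slc2a4 was lost without any 1 of KO_Ex replicates 1, 3 and 4, WT_Ex replicate 3, KO_Sed replicates 2, 3 and 5, WT_Sed replicates 1, 2 and 3 (-0.53 to -0.48). Pfkm was lost without any 1 of KO_Ex replicates 1, 3 and 4, WT_Ex replicate 3, KO_Sed replicates 2, 3, 4 and 5, WT_Sed replicates 1, 2 and 3 (-0.43 to -0.40). Aldoa was lost without KO_Ex replicates 1, 2, 3, 4 and 5, WT_Ex replicates 2, 3 and 4, KO_Sed replicates 2, 3, 4 and 5, WT_Sed replicates 1, 2 and 3 (-0.50 to -0.40), each taken alone. Gpi1 was lost without KO_Ex replicates 1, 2, 3 and 4, WT_Ex replicates 2, 3, 4 and 5, KO_Sed replicates 2, 3, 4 and 5, WT_Sed replicates 1, 2 and 3 (-0.49 to -0.40), each taken alone. On the TPM scale, and with log2 Arntl as a covariate, Ldhb alone passed. With no filter on low values Ldhb and Pgam2 passed, and without the 5 libraries with high Arntl 0 of 32 passed, with Ldhb at -0.71, Pgam2 at -0.54 and Eno3 at -0.47. Aldoa (-0.45) and Gpi1 (-0.39) were not called without the 4 libraries with high Myl7, where 9.45% of all tested genes were called. In that setting Pfkp was called upward (0.90, limma adjusted p = 0.00552). Pfkfb1 (-1.28) and Phkg1 (-0.88) were called downward there (limma adjusted p = 0.0412 for each).

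**Figure D4:**
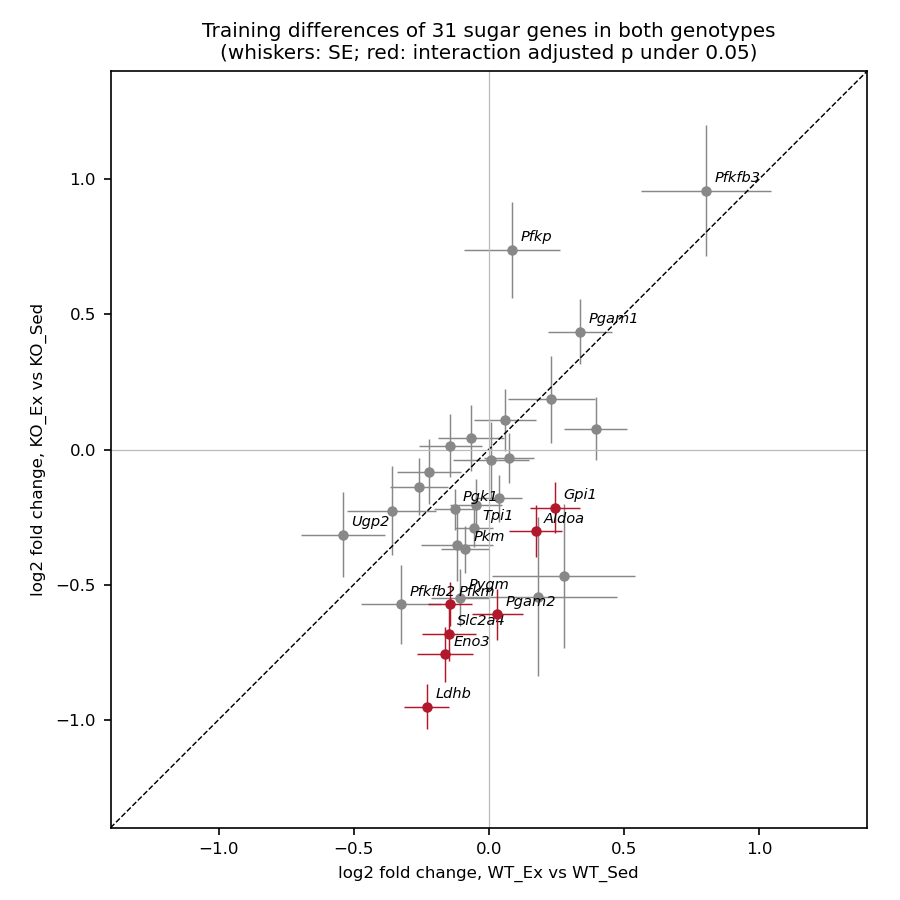
Log2 fold change of training in labelled knockouts (vertical) against that in wild type (horizontal) for 31 genes, with SE as whiskers. Gapdh, whose level is uncertain, is not drawn. The dashed line marks equal differences, and the 7 genes in red, whose interaction passed, lie below it, with Ldhb at -0.95 in labelled knockouts and -0.23 in wild type.

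Rescaling to TPM raised the median log2 fold change of all genes by 0.27 in KO_Ex against WT_Ex, 0.25 in KO_Ex against KO_Sed and 0.18 in the interaction. Median-ratio scaling moved that median by 0.013, 0.019 and 0.012 in the same order. Aldoa, Tpi1, Pgam2 and Eno3 no longer passed on the TPM scale in KO_Ex against WT_Ex, at -0.20, 0.02, -0.21 and -0.16. Relative to the all-gene median on that scale they were at -0.46, -0.25, -0.48 and -0.42. Slc2a4 (-0.41), Pfkm (-0.54), Gys1 (-0.40) and Pygm (-0.27) still passed with smaller values, and Ldha (0.60) and Galk2 (0.98) with larger ones. In KO_Ex against KO_Sed, Slc2a4 (-0.41), Pfkm (-0.30), Pgam2 (-0.34), Eno3 (-0.49), Pygm (-0.28) and Pgam1 (0.71) still passed, while Pfkfb2 (-0.33) and Aldoa (-0.03) did not.

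Among 99 further tested genes of sugar metabolism, 18 rose and 15 fell in KO_Ex against WT_Ex, 13 rose and 6 fell in KO_Sed against WT_Sed, 12 rose and 16 fell in KO_Ex against KO_Sed, and 2 rose and 5 fell in WT_Ex against WT_Sed. The interaction passed for 3 upward and 4 downward. These are 33.3%, 19.2%, 28.3%, 7.07% and 7.07% of the 99, in the order given, where 27.9%, 13.3%, 28.4%, 5.47% and 7.32% of all tested genes were called. Slc2a12, the transporter GLUT12, fell by 1.32 on the log2 scale in KO_Ex against WT_Ex and by 1.28 in KO_Sed against WT_Sed.

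In the list of further genes of glycolysis and lactate 20 were tested, of which 4 rose and 5 fell in KO_Ex against WT_Ex, 3 rose and 2 fell in KO_Sed against WT_Sed, and 3 rose and 6 fell in KO_Ex against KO_Sed. Slc16a3, which encodes the lactate exporter MCT4, rose by 1.24 in KO_Ex against WT_Ex, 1.00 in KO_Sed against WT_Sed and 0.78 in KO_Ex against KO_Sed. Bsg, the chaperone of the monocarboxylate transporters, averaged 468 ± 29.1 FPKM in KO_Ex against 669 ± 79.4 in WT_Ex and fell by 0.51 on the log2 scale. Ldhd, the dehydrogenase of D-lactate, fell in both genotype comparisons (-0.83 and -0.39), with KO_Ex training (-0.73) and in the interaction (-0.45, limma adjusted p = 0.0445). Fbp2, the muscle fructose bisphosphatase, fell in KO_Ex against KO_Sed (-1.19).

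In the glycogen list 24 genes were tested, of which 2 were called in KO_Ex against WT_Ex, both upward, 3 rose and 1 fell in KO_Sed against WT_Sed, and 1 rose and 4 fell in WT_Ex against WT_Sed. Phka2, a phosphorylase kinase subunit, rose in both genotype comparisons (0.44 and 0.49), and Stbd1, a glycogen-binding protein, rose in KO_Sed against WT_Sed (1.10) and in WT_Ex against WT_Sed (0.98). Nhlrc1, which encodes the ubiquitin ligase malin, fell in both of those comparisons (-0.50 and -0.44). Ppp1r3d (-0.55), a glycogen-targeting subunit of protein phosphatase, and Pgm1 (-0.33), a phosphoglucomutase, also fell in WT_Ex against WT_Sed, as did Epm2a (-0.41), which encodes laforin and was named after its value was seen. WT_Sed had the highest mean Arntl, and the part of Arntl in the calls of these further genes was not tested. With log2 Arntl as a covariate 0.532% of all tested genes were called in WT_Ex against WT_Sed, against 5.47% in the main fit. In KO_Sed against WT_Sed the shares were 4.33% and 13.3%. In the pentose phosphate list of 12 tested genes, G6pdx, its entry enzyme, rose in KO_Ex against WT_Ex (0.61) and against KO_Sed (0.67), while Pgls, the next enzyme, fell in both (-0.35 and -0.33). Among 29 tested genes of hexosamine and other sugars, Gfpt2, which commits fructose 6-phosphate to hexosamines, averaged 7.98 ± 1.26 FPKM in KO_Ex against 3.14 ± 0.557 in KO_Sed and rose by 1.22 (limma adjusted p = 7.54e-06). Ugdh, which makes UDP-glucuronate for matrix polysaccharides, rose by 1.02 in the same comparison. Galt, of galactose breakdown, fell by 0.81 on the log2 scale in KO_Ex against WT_Ex.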

How the data were processed

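Poly-A RNA libraries of 20 hearts, 5 per group, were used. The deposited table holds FPKM values made by the authors. The submitters' processing notes name HISAT2 2.0.5, featureCounts 1.5.0-p3, DESeq2 1.20.0 and mm10, without their roles. No aligner setting or counting rule is given in the sources used here.

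Genes with a mean of at least 0.5 FPKM (13723 of 25851) were tested on log2(FPKM + 0.5) with limma 3.58.1 in R 4.3.3, as 4 group means with 16 residual degrees of freedom, a trended prior and Benjamini-Hochberg adjustment over all of them at 0.05. Fold changes on this scale understate those of low genes. The script was tested on simulated data. Isoform ratios, with 0.5 added to the FPKM of both genes, were compared by exact permutation in Python 3.11.15 with scipy 1.17.1.

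FPKM divided by the value of 1 read gave whole reads within 0.01 for 96.6% of genes, with 5.36% of reads in other rows. limma voom on these reads, an alternative chosen after seeing the data, called 10 members in KO_Sed against WT_Sed, 14 in KO_Ex against WT_Ex, 0 in WT_Ex against WT_Sed, 14 in KO_Ex against KO_Sed and 7 in the interaction. Of the 13060 genes tested in that way, 12.3%, 28.4%, 4.3%, 29.1% and 5.91% were called in the same order. No count model was the main test.

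The named genes were every member past the threshold, up to 20 by smallest adjusted p with values in every heart, then both genes of each pair whose ratio passed. The others are given by ranges or fold changes. From each further list up to 4 called genes per comparison were named. Some of them are not reported here. The members and lists were chosen with earlier results of these data known. Gene coordinates are from GENCODE M21 on GRCm38. The alternatives were other pseudocounts, filters, scalings and spread estimates, a replicate block, Myl7 and Arntl covariates, and libraries left out.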

Additional observations from a re-analysis of the deposited data

Results flagged for a closer look

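In 10 of 132 groups of 5 hearts, 1 heart stood far from the other 4 by Dixon's criterion, which chance alone meets in about 1 of 20 groups. Slc2a4 was 95.6 FPKM in KO_Ex replicate 5 and 82.7 to 85.6 in the other KO_Ex hearts. Pfkfb3 was 6.93 FPKM in KO_Ex replicate 2 and 2.49 to 3.15 in the others. Pfkfb1 was 10.5 FPKM in WT_Ex replicate 2 and 3.99 to 5.1 in the others. Pfkp was 3.04 FPKM in WT_Ex replicate 5 and 4.14 to 4.49 in the others. Aldoc, near the limit of detection, was 0.325 FPKM in WT_Ex replicate 5 and 0.0184 to 0.0983 in the others, and 0.0574 FPKM in WT_Sed replicate 2 with the others at 0. Pfkfb2 was 11.0 FPKM in KO_Sed replicate 1 and 7.65 to 8.54 in the others. Ldhb was 914 FPKM in KO_Sed replicate 3 and 766 to 789 in the others. Pgam2 was 484 FPKM in WT_Sed replicate 3 and 631 to 677 in the others. Phkg1 was 11.0 FPKM in WT_Sed replicate 5 and 6.49 to 7.68 in the others.

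The training difference of 7 genes differed between the genotypes by the interaction term of limma. The values, labelled knockout minus wild type on the log2 scale, were -0.72 for Ldhb, -0.64 for Pgam2, -0.60 for Eno3, -0.53 for Slc2a4, -0.47 for Aldoa, -0.46 for Gpi1 and -0.43 for Pfkm.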

How the results depend on the processing

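Of 46 calls, 19 were kept in every setting tried and without any 1 library. Over the other settings 569 of 636 repeats of a call kept direction and threshold, 65 lost the call and 2 reversed, namely Tpi1 at 0.0182 in KO_Ex against WT_Ex and Pgk1 at 0.0489 in KO_Ex against KO_Sed, both on the TPM scale. With 1 library left out, 453 of 530 held and 77 lost the call. In KO_Sed against WT_Sed, 10 members were called, against 16 with array weights, 6 with log2 Arntl as a covariate and 1 without the 5 libraries with high Arntl, where 13.3%, 38.9%, 4.33% and 0.138% of all tested genes were called in the same order. In WT_Ex against WT_Sed, 1 was called, against 7 with array weights, 2 with a pseudocount of 0.1, with a filter at 2 FPKM or with median-ratio scaling, and 0 under each of the other settings but the replicate block. Of all tested genes 5.47% were called, against 19.2% with array weights and 0.0291% to 7.13% under those other settings. Leaving out 1 library gave 0 to 4. In the interaction 7 were called, against 14 with array weights, 2 with no filter, 1 on the TPM scale, 1 with log2 Arntl as a covariate and 0 without the 5 libraries with high Arntl, where 7.32%, 36.7%, 2.43%, 2.19%, 1.95% and 0.00729% of all tested genes were called in the same order. Leaving out 1 library gave 3 to 8. The cause of these shifts was not tested. Of the 40 isoform ratios 28 passed, against 0 without the 4 libraries with high Myl7, where the smaller groups limit the smallest possible p, and 17 of 20 possible tests without the 5 libraries with high Arntl. Aldoc had 0 to 27 reads per library.

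The replicate number was also fitted as a block. Same-numbered hearts had correlations of -0.278 to 0.484 between their deviations, so the numbers are no evidence of pairing. With the replicate block 11 members were called in KO_Sed against WT_Sed, 17 in KO_Ex against WT_Ex, 4 in WT_Ex against WT_Sed, 15 in KO_Ex against KO_Sed and 6 in the interaction, where Aldoa was not called (-0.47). Of all tested genes 18%, 30.8%, 12.1%, 31.2% and 9.51% were called in the same order.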
